A study of Mus musculus with 4 samples.

Results

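The angiopoietin and Tie axis was followed in whole retinas of mice through 5 genes, the ligands Angpt1 and Angpt2, the receptors Tek and Tie1 and the phosphatase Ptprb. They were chosen by symbol, and all 5 were found among the 23278 genes of the table. RNA was sequenced at postnatal day 10 from 4 genotypes of a mixed strain with at least C57BL6 and 129 in it, with 1 library per genotype. The stabilized knockout (NdpKO;Ctnnb1flex3/+;Pdgfb-CreER, titled as the rescue) lacks Ndp, which encodes the secreted protein Norrin, and carries a beta-catenin allele that recombination turns into a stabilized form. The knockout (NdpKO) lacks Ndp alone, the stabilized genotype (Ctnnb1flex3/+;Pdgfb-CreER) has the allele and the recombinase with Ndp intact, and the WT has none of these. Recombination depends on Pdgfb-CreER, a tamoxifen-inducible Cre under the Pdgfb regulatory sequence, which is active mainly in endothelial cells, and the labels list it for neither the knockout nor the WT. Mice of all 4 genotypes received 20 ug of 4HT, an active tamoxifen metabolite, at postnatal day 3. RNA was extracted 3 times per genotype, from 4 to 8 retinas and 2 to 4 mice at a time, and pooled into the library, so the spread between animals was not measured and no difference below has a replicate check or a p-value.

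Tek encodes Tie2, the receptor tyrosine kinase through which angiopoietins act on endothelial cells. Angiopoietin 1 activates Tie2 and favours quiescent, tightly sealed vessels, while angiopoietin 2 blocks or weakly activates it depending on the setting and accompanies vessel growth and remodelling. Tie1 is a related receptor that binds no angiopoietin by itself and modulates Tie2, and Ptprb, also called VE-PTP, is an endothelial receptor phosphatase that removes phosphate from Tie2. In the retina these genes act while the superficial vessels send branches into the deeper layers, a step that requires Norrin.

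Ndp was lower in both libraries labelled as knockouts. It was at 0.869 FPKM in the stabilized knockout and 0.873 FPKM in the knockout, against 2.35 FPKM with stabilization alone and 2.98 FPKM in WT. FPKM counts fragments relative to transcript length and to the size of the library. Pdgfb, whose regulatory sequence drives the Cre, was at 2.92 and 2.57 FPKM in the stabilized knockout and stabilized libraries, against 1.11 and 1.14 FPKM in the knockout and WT. Xist was at 1.28 and 1.25 FPKM in the stabilized knockout and the knockout and at 130 and 135 FPKM in the stabilized library and WT, so loss of Ndp and sex cannot be told apart here. Deposited FPKM summed to between 405525 and 427109 per library, and the sources used here give no read totals. The endothelial marker Pecam1 was at 1.93 to 4.12 FPKM. In RNA of whole tissue, fewer cells of a type cannot be told apart from less RNA per cell.

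Stabilized beta-catenin went with higher RNA of both receptors and of the phosphatase, on both Ndp backgrounds. Tie1 was 4.43 times as high in the stabilized knockout as in the knockout and 3.07 times as high in the stabilized library as in WT. For Tek the same quotients were 3.36 and 2.08, and for Ptprb 2.23 and 1.58. Angpt2 was 1.30 and 1.32 times as high and Angpt1 0.902 and 0.735 times as high, with overlapping intervals. These 2 comparisons share no library.

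The members were low in these libraries. Angpt2 had the highest mean over the 4 libraries, 4.30 FPKM, and Tie1 had 1.75 FPKM. Tek (0.866 FPKM), Ptprb (0.839 FPKM) and Angpt1 (0.601 FPKM) fell short of the mean of 1 FPKM that was set for calls. Of the 5 members 2 were therefore eligible for a call, and Tie1 was eligible only through the libraries with stabilized beta-catenin, so the values of all 5 are given and the calls are a description. Log2 ratios were computed from FPKM plus 0.5, which makes the changes of genes this low look smaller than the FPKM do. The interval printed with a value is the deposited one, which describes the estimate within a library, and the sources used here do not give its level.

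**Figure D1:**
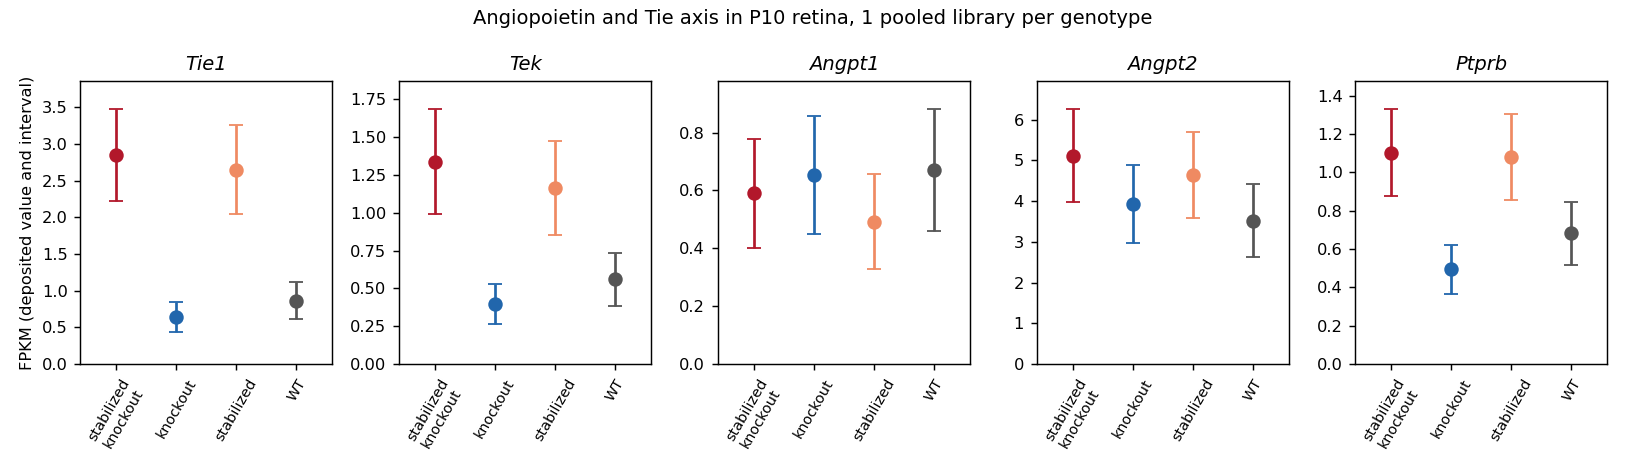
FPKM of the 5 members (vertical axes, each from 0) in the stabilized knockout, knockout, stabilized and WT libraries, with bars for the deposited intervals. Tie1, Tek and Ptprb are high in the stabilized knockout and stabilized libraries, with Tie1 at 2.85 and 2.65 FPKM there, while the bars of Angpt1 and of Angpt2 overlap in all 4 libraries.

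Angpt1 (chromosome 15, 42424723 to 42676977, minus strand, GENCODE M21 on mm10), the activating ligand, was at 0.590 FPKM in the stabilized knockout (interval 0.400 to 0.779) and 0.654 FPKM in the knockout (0.449 to 0.858). In the stabilized library it was at 0.492 FPKM (0.329 to 0.655), and in WT at 0.670 FPKM (0.459 to 0.880). The libraries with stabilized beta-catenin had the lower values, but all 4 intervals overlapped and the highest value was 1.36 times the lowest. The log2 ratio was -0.08 for the stabilized knockout over the knockout and -0.24 for the stabilized library over WT. The deposited bounds of the stabilized library and WT allow quotients between 0.373 and 1.43. The antisense gene Gm17473 shares 737 of the 5205 exonic bases of Angpt1 in the annotation. The labels do not say that strand was kept, so reads of the 2 genes may be mixed there.

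Angpt2 (chromosome 8, 18690263 to 18741562, minus strand), the ligand of vessel remodelling, was the most abundant member per length in every library. It was at 5.12 FPKM in the stabilized knockout (3.98 to 6.25) and 3.94 FPKM in the knockout (2.98 to 4.89), a log2 ratio of 0.34. In the stabilized library it was at 4.64 FPKM (3.58 to 5.70) against 3.52 FPKM in WT (2.63 to 4.41), and the log2 ratio was 0.35. The values were higher with stabilized beta-catenin in both pairs by nearly the same ratio, within overlapping intervals. The deposited locus of Angpt2 is shared with Mcph1, a gene on the opposite strand that contains it. The annotation gives 0 exonic bases in common, and Mcph1 lay between 1.48 and 1.65 FPKM in the 4 libraries with WT highest. Angpt2 has been reported in horizontal cells of the retina as well as in endothelium. The 7 horizontal cell markers summed to 84.7 FPKM in the stabilized knockout and 86.0 FPKM in the knockout, and to 85.2 FPKM in the stabilized library against 89.4 FPKM in WT, with none at 0 in any library. Much of each sum is Prox1, which was at 45.3 to 49.1 FPKM. Horizontal cell genes had a median log2 ratio of -0.02 and -0.05 in these 2 comparisons. Single genes went both ways, with quotients of 1.21 and 1.43 for Lhx1 and 0.797 and 0.821 for Calb1, within overlapping intervals. The part of horizontal cells in the Angpt2 values was not tested.

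Tek (chromosome 4, 94739289 to 94874976, plus strand), the angiopoietin receptor, was at 1.34 FPKM in the stabilized knockout (0.994 to 1.68) and 0.399 FPKM in the knockout (0.265 to 0.533). In the stabilized library it was at 1.17 FPKM (0.856 to 1.48), and in WT at 0.562 FPKM (0.387 to 0.737). The libraries with stabilized beta-catenin were the higher ones, and their intervals lay apart from those of the other libraries. The log2 ratio was 1.03 on the knockout background and 0.65 with Ndp intact. By opposite ends of the intervals the quotient lay between 1.87 and 6.36 on the knockout background and between 1.16 and 3.81 with Ndp intact.

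Tie1 (chromosome 4, 118471191 to 118490061, minus strand), the receptor without an angiopoietin of its own, had the widest range of the members. It was at 2.85 FPKM in the stabilized knockout (2.22 to 3.47) and 0.643 FPKM in the knockout (0.439 to 0.847), a log2 ratio of 1.55. With Ndp intact it was at 2.65 FPKM in the stabilized library (2.05 to 3.25), against 0.864 FPKM in WT (0.608 to 1.12), with a log2 ratio of 1.21. Both values with stabilized beta-catenin lay far above the others, and the quotient was at least 2.62 on the knockout background and 1.83 with Ndp intact by opposite ends of the intervals. Of the 13150 genes with a mean of at least 1 FPKM, 57 had a higher ratio than Tie1 on the knockout background and 72 with Ndp intact.

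Ptprb (chromosome 10, 116275523 to 116389535, plus strand), the phosphatase of Tie2, was at 1.10 FPKM in the stabilized knockout (0.874 to 1.33) and 0.494 FPKM in the knockout (0.366 to 0.623). With Ndp intact it was at 1.08 FPKM in the stabilized library (0.856 to 1.30), and in WT at 0.682 FPKM (0.519 to 0.845). The order of the libraries was that of Tie1 and Tek, with a smaller range. Intervals were well apart on the knockout background (log2 ratio 0.69) and narrowly apart with Ndp intact (0.42), where the bounds allow a quotient as low as 1.01.

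Promoter windows of Tie1 and Tek are shown because these receptors had the highest ratios and a window was given for them. For the other members no entry was given. The windows span 250 bases before to 50 bases after the annotated start, from RefSeq on GRCm38.p6, at chr4:118489800-118490099 on the minus strand for Tie1 and chr4:94739039-94739338 on the plus strand for Tek. The RefSeq start of Tie1 differs from the GENCODE one at 118490061, so most of the Tie1 window lies inside the gene as given above. Capitals mark GGAA or its reverse complement TTCC, the core that ETS factors bind. They also mark CTTTG or its reverse complement CAAAG, the core that TCF/LEF factors, the partners of beta-catenin, bind.
Tie1: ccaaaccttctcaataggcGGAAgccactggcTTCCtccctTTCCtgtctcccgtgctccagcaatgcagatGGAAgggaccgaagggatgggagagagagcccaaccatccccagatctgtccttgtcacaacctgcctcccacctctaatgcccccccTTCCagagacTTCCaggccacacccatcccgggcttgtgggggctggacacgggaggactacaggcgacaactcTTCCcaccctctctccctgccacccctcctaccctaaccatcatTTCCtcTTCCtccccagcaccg
Tek: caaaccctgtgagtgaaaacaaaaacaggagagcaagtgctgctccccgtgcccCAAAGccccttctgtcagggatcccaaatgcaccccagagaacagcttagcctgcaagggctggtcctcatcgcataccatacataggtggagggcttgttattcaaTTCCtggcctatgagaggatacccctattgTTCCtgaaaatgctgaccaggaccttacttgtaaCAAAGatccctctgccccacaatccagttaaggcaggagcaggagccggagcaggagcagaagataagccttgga
The Tie1 window held 9 matches to GGAA on either strand and 0 to CTTTG. The Tek window held 2 matches to GGAA and 2 to CTTTG, which start at positions -196 and -25 from the annotated start. Among all 32851 RefSeq windows given, 96.0% held GGAA, with 3.52 matches on average, and 53.9% held CTTTG. The letters AGATA, the core that GATA factors bind, were found once in the Tek window, at 37, and not in that of Tie1, against 29.6% of all windows. TGATA was in neither, against 24.7% of all windows. The searched motifs do not overlap one another in these windows, and a match is a string of letters, not a bound site.

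In calls, 1 of the 2 eligible members, Tie1, was at least 1.5-fold higher in the stabilized knockout than in the knockout, against 1.76% of the 13150 genes. None was 1.5-fold lower, against 0.920%. With a minimum mean of 0.5 FPKM or none, 3 of the 5 members reached 1.5-fold, Tie1, Tek and Ptprb, against 2.14% and 1.60% of genes at those settings. The intervals of the same 3 members lay apart, against 1.52% of the 14243 genes with a mean of at least 0.5 FPKM that were higher with intervals apart. For the stabilized library over WT, Tie1 was again the 1 eligible member called higher, against 1.67% of genes, and none was lower, against 1.71%. With a minimum mean of 0.5 FPKM or none Tek joined it, against 1.84% and 1.28% of genes at those settings, and intervals lay apart for Tie1, Tek and Ptprb, against 1.90% of genes. Tek reached the minimum of 0.5 FPKM only through the libraries with stabilized beta-catenin. The counts at that minimum, here and below, are therefore a description too.

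The stabilization ratio was higher on the knockout background for 4 members. The log2 ratio there minus that with Ndp intact was 0.34 for Tie1, 0.38 for Tek, 0.27 for Ptprb and 0.16 for Angpt1, and -0.01 for Angpt2. With 1 library per genotype this difference was not tested, and the 2 backgrounds also differ in sex. The deposited bounds of the 2 quotients overlap widely for each member.

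Most endothelial markers were higher in the libraries with stabilized beta-catenin, as were Tie1, Tek and Ptprb. Emcn was lower in both pairs, with overlapping intervals. With Ndp intact Egfl7 and Tal1 had quotients of only 1.10 and 1.03. On the knockout background their quotients were 1.65, with overlapping intervals, and 3.72, with intervals apart. Tal1 was low in that pair, at 0.201 FPKM against 0.0541 FPKM. Of 20 pan-endothelial markers, none of them a member, 14 were eligible for a call. In the stabilized knockout over the knockout 10 of these were at least 1.5-fold higher and 0 lower, and their median log2 ratio was 0.88 against 0.03 over all genes tested. In the stabilized library over WT 6 were higher (Pecam1, Cdh5, Eng, Sox18, Cd93 and Ets1) and 0 lower, and their median was 0.52 against -0.02 over all genes. On the knockout background Esam, Cd34, Icam2 and Egfl7 joined these, Egfl7 with overlapping intervals. Without stabilization Icam2 lay under the minimum (knockout 0.768 FPKM, WT 0.726 FPKM). It became eligible only by its values with stabilization, 1.88 FPKM on the knockout background and 1.24 FPKM with Ndp intact. Counts and medians of the 14 eligible markers, here and below, are therefore a description. Cd93, an endothelial surface protein, was at 5.44 FPKM in the stabilized knockout against 1.29 FPKM in the knockout, and 4.44 FPKM in the stabilized library against 1.49 FPKM in WT. Cdh5, the cadherin of endothelial junctions, had 2.98 FPKM in the stabilized knockout against 1.36 FPKM in the knockout, and 2.79 FPKM in the stabilized library against 0.754 FPKM in WT. Pecam1, an adhesion protein of endothelial cells, had 4.08 FPKM in the stabilized knockout against 2.02 FPKM in the knockout, and 4.12 FPKM in the stabilized library against 1.93 FPKM in WT. Summed over the 20 markers, the level was 103 FPKM in the stabilized knockout and 67.9 FPKM in the knockout, and with Ndp intact 100.4 FPKM in the stabilized library against 70.1 FPKM in WT. No marker was at 0 in any library. Much of each sum is Kdr, which was at 39.0 to 47.7 FPKM and whose intervals overlapped in all comparisons with WT or the knockout. The part of the endothelial content in the receptor values was not tested.

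Set beside those markers, Tie1 stood high in both pairs, Ptprb near the middle, and the ligands low. Tek stood high on the knockout background by quotients of FPKM, and less so with 0.5 added. By quotients of FPKM, no pseudocount added, 0 of the 20 markers exceeded Tie1 in the stabilized knockout over the knockout, 3 exceeded Tek, 12 Ptprb, 17 Angpt2 and 19 Angpt1. Their median quotient was 2.37. On the log2 scale with 0.5 added 1 of the 14 eligible markers, Cd93, exceeded Tie1 in that comparison, at 1.73 against 1.55. Tek was exceeded by 5 of the 14 there. In the stabilized library over WT, where the median was 1.63, 3 exceeded Tie1, 8 Tek, 11 Ptprb, 16 Angpt2 and 19 Angpt1. Emcn, the endothelial sialomucin of veins and capillaries, was the marker below Angpt1 in both pairs. It was at 1.41 FPKM in the stabilized knockout against 1.85 FPKM in the knockout, and 1.21 FPKM in the stabilized library against 1.69 FPKM in WT. On the log2 scale with 0.5 added, Tie1 exceeded the median of the 14 markers by 0.67 and 0.68 in these 2 comparisons and Tek by 0.15 and 0.13. Ptprb differed from that median by -0.20 and -0.11, Angpt2 by -0.54 and -0.17, and Angpt1 by -0.97 and -0.76.

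**Figure D2:**
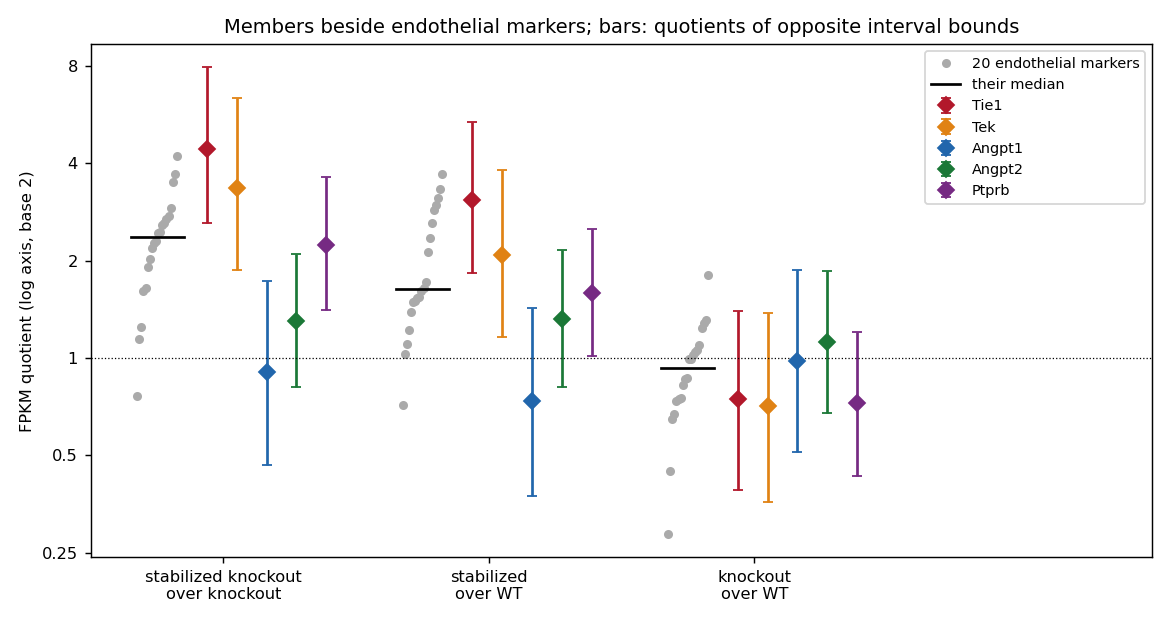
Quotients of FPKM (log axis) in 3 comparisons for 20 endothelial markers (grey points, black bar for their median) and for the 5 members (diamonds), whose bars join the quotients of opposite interval bounds. Tie1 lies above all grey points in the stabilized knockout over the knockout, where the marker median is 2.37 (with 0.5 FPKM added Cd93 lies above it), and the bars of all 5 members cross 1 in the knockout over WT.

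Mural cells surround capillaries and are a known source of angiopoietin 1, and their markers were partly higher in the same libraries. Of 7 eligible pericyte and smooth muscle genes, 4 were 1.5-fold higher and 0 lower in each of the 2 stabilization comparisons. They were Notch3, Acta2 and Abcc9 in both, with Rgs5 on the knockout background and Pdgfrb with Ndp intact. Notch3, Acta2 and Abcc9 were below 1 FPKM in the knockout and WT and reached the minimum only through the stabilized libraries. The count and the median of this list are therefore a description. Vtn, the most abundant of these genes, was at 27.8 FPKM in the stabilized knockout against 36.5 FPKM in the knockout, and 24.0 FPKM in the stabilized library against 26.3 FPKM in WT, with overlapping intervals. Tagln, a smooth muscle gene, was at 2.02 FPKM in the stabilized knockout against 2.01 FPKM in the knockout, and 2.27 FPKM in the stabilized library against 2.00 FPKM in WT. The median log2 ratio of the 7 eligible mural genes was 0.75 on the knockout background and 0.86 with Ndp intact, in both the ratio of Notch3. The channel subunit Abcc9 was at 1.63 FPKM in the stabilized knockout against 0.643 FPKM in the knockout, and 1.71 FPKM in the stabilized library against 0.691 FPKM in WT. The 10 listed mural genes summed to 62.6 FPKM in the stabilized knockout and 52.2 FPKM in the knockout, and to 61.2 FPKM in the stabilized library against 49.8 FPKM in WT, with none at 0 and with Vtn a large part of each sum. Retinal astrocyte genes had a median log2 ratio of 0.34 on the knockout background and 0.30 with Ndp intact over 5 genes. Among them Pdgfra, a receptor for platelet-derived growth factors, was at 10.2 FPKM in the stabilized knockout against 5.10 FPKM in the knockout, and 8.91 FPKM in the stabilized library against 5.06 FPKM in WT. Gfap, the astrocyte filament protein, was 1.5-fold higher and the water channel gene Aqp4 1.5-fold lower in the stabilized library over WT, both with intervals apart. In the stabilized knockout Aqp4 was at 2.97 FPKM against 4.39 FPKM in the knockout, also with intervals apart. Gfap was at 8.80 FPKM against 6.38 FPKM in that pair, with overlapping intervals. Red cell genes were higher too, with Hba-a1, Hba-a2 and Hbb-b1 past 1.5-fold on the knockout background and these and Hbb-b2 with Ndp intact, Hbb-b1 there with overlapping intervals. These globin genes have near-identical copies and their separate values are uncertain. The 9 genes of platelets and red cells summed to 190 FPKM in the stabilized knockout and 88.4 FPKM in the knockout, and to 177 FPKM in the stabilized library against 81.5 FPKM in WT. The platelet gene Pf4 was at 0 in the knockout and stabilized libraries and Gp9 at 0 in the stabilized knockout and knockout. On the knockout background the median log2 ratio was -0.07 for Muller glia, 0.19 for microglia and -0.05 for photoreceptor genes. With Ndp intact it was -0.11 for Muller glia, -0.02 for microglia and 0.02 for photoreceptor genes. Of these 3 lists, the photoreceptor genes Gnat1 and Opn1mw were 1.5-fold lower on the knockout background, and Opn1mw and the microglial P2ry12, the last with overlapping intervals, with Ndp intact. The part of these cells in the values of the members was not tested.

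Eligible genes that carry the Tie2 signal onward lay near the median of all genes. Of 28 adaptors, kinases, Foxo factors, shedding proteases and reported outputs, 24 were eligible, and 0 were 1.5-fold higher or lower in the stabilized knockout over the knockout (median 0.06) or in the stabilized library over WT (median 0.01). Foxo1, the transcription factor that Tie2 signalling restrains through Akt and that drives Angpt2 in endothelial cells, was at 4.68 FPKM in the stabilized knockout against 4.52 FPKM in the knockout, and 4.92 FPKM in the stabilized library against 4.00 FPKM in WT, with overlapping intervals. Below the minimum, the quotients in these 2 comparisons were 2.10 and 1.68 for Klf2 and 1.42 and 2.27 for Esm1. They were 1.82 and 0.808 for Grb7 and 1.14 and 0.718 for Dok2, all with overlapping intervals. Most of the listed genes act in many cell types besides endothelium. Nos3, the endothelial nitric oxide synthase, was at 2.19 FPKM in the stabilized knockout against 1.86 FPKM in the knockout, and 2.12 FPKM in the stabilized library against 1.27 FPKM in WT, with overlapping intervals in both. Between the stabilized knockout and WT its intervals lay apart, with a log2 ratio of 0.60. Those of Esm1 lay apart there too, and those of Klf2, Grb7 and Dok2 overlapped. Of 5 integrin subunits reported to bind angiopoietins or to associate with Tie2, 3 were eligible and none of these was 1.5-fold apart in either stabilization comparison (medians 0.04 and 0.11). Below the minimum, Itga5 had quotients of 1.59 and 1.60 and Itgb3 of 1.54 and 1.24, with overlapping intervals. Between the stabilized knockout and WT the intervals of Itga5 lay apart and those of Itgb3 overlapped. In a list of 8 phosphatases related to Ptprb and junction proteins, 6 were eligible. Cdh5, which is also in the endothelial list, was 1.5-fold higher in both comparisons, and Jup, the junction protein plakoglobin, was at 6.66 FPKM in the stabilized library against 4.18 FPKM in WT with intervals apart. The receptor phosphatase Ptpro was at 14.1 FPKM in the stabilized knockout against 10.9 FPKM in the knockout, with overlapping intervals, and 14.5 FPKM in the stabilized library against 10.7 FPKM in WT, with intervals apart. The related Ptprj was at 4.24 FPKM in the stabilized knockout against 3.80 FPKM in the knockout, and 3.73 FPKM in the stabilized library against 3.61 FPKM in WT. Of 9 other ligands and related secreted proteins 1 was eligible, the angiopoietin-like gene Angptl6. It was at 3.72 FPKM in the stabilized knockout against 3.79 FPKM in the knockout, and 3.91 FPKM in the stabilized library against 4.08 FPKM in WT. Lect2, reported to bind Tie1, was at 0 in all 4 libraries.

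**Figure D3:**
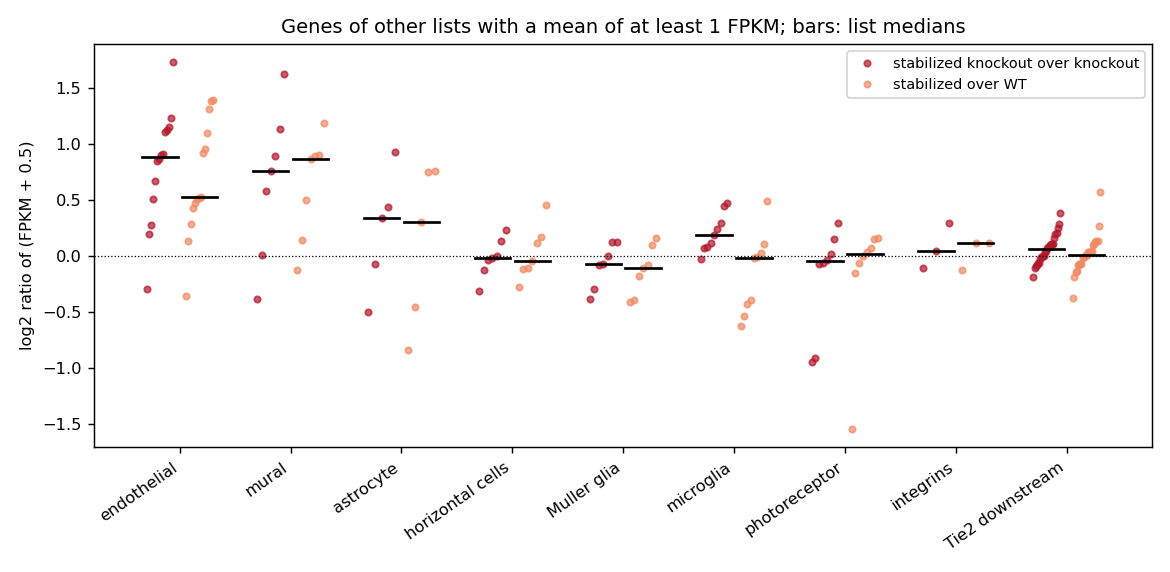
Log2 ratios of FPKM plus 0.5 for the eligible genes of 9 lists, in the stabilized knockout over the knockout and the stabilized library over WT, with black bars for list medians. Not drawn are platelet and red cell genes, phosphatases and junction proteins, and other ligands and related secreted proteins. Of the lists drawn, endothelial genes lie highest on the knockout background (median 0.88) and mural genes with Ndp intact (0.86). The genes downstream of Tie2 lie near 0 (0.06 and 0.01). The mural medians are the ratios of Notch3, which was eligible only through the libraries with stabilized beta-catenin. Icam2, in the endothelial list, was eligible in the same way.

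Loss of Ndp by itself went with lower receptor and phosphatase values, within overlapping intervals. In the knockout over WT the quotient was 0.744 for Tie1, 0.710 for Tek and 0.725 for Ptprb, against 0.976 for Angpt1 and 1.12 for Angpt2. No member was 1.5-fold higher, against 0.966% of genes, or lower, against 1.22%, and no intervals lay apart, against 0.835% in either direction. This comparison shares its libraries with the stabilization comparisons. The bounds of Tie1 allow quotients between 0.392 and 1.39. The log2 ratios of Tie1 (-0.25), Tek (-0.24) and Ptprb (-0.25) were lower than those of 94.1%, 93.3% and 93.8% of the genes tested. The median quotient of the 20 endothelial markers was 0.929, and 14 of them had a higher quotient than Tie1 and 16 a higher one than Tek. Among these markers intervals lay apart for Cdh5, at 1.36 FPKM in the knockout against 0.754 FPKM in WT, and in the other direction for the transcription factor gene Tal1, at 0.0541 FPKM in the knockout against 0.190 FPKM in WT. Cldn5, a tight junction gene of endothelium outside that list, was at 0.675 FPKM in the knockout against 6.91 FPKM in WT, with intervals apart. The part of the endothelial content in the values of the members was not tested here either. In this comparison the libraries also differ in sex.

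With beta-catenin stabilized, loss of Ndp went with nearly equal values. The stabilized knockout over the stabilized library gave quotients of 1.07 for Tie1, 1.15 for Tek, 1.02 for Ptprb, 1.20 for Angpt1 and 1.10 for Angpt2. No member was 1.5-fold higher, against 0.981% of genes, or lower, against 0.692%, and no intervals lay apart, against 0.562%. For Tie1 the bounds allow quotients between 0.682 and 1.70. These libraries also differ in sex.

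Set against WT, the stabilized knockout had higher RNA of both receptors and of the phosphatase. The quotient was 3.30 for Tie1, 2.38 for Tek and 1.61 for Ptprb with intervals apart for all of these, and 0.880 for Angpt1 and 1.45 for Angpt2 with overlapping ones. Of the eligible members Tie1 was called higher, against 1.79% of genes, and none lower, against 1.07%. With a minimum mean of 0.5 FPKM or none Tek was higher too, against 1.92% and 1.39% of genes at those settings. Intervals lay apart for 3 of the 5 members, against 2.11% of genes. This comparison shares its libraries with those above, and the libraries also differ in sex.

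Since FPKM are per length, levels of the members can be set side by side within a library. In the stabilized knockout the order was Angpt2, Tie1, Tek, Ptprb and Angpt1, and in the stabilized library it was the same. In both, only the neighbours Tek and Ptprb had overlapping intervals. In the knockout Angpt2 was followed by Angpt1, Tie1, Ptprb and Tek, and in WT by Tie1, Ptprb, Angpt1 and Tek, and there the intervals of the 4 genes below Angpt2 overlapped. The quotient of Angpt2 to Angpt1 was 8.68 in the stabilized knockout and 6.02 in the knockout, and 9.43 in the stabilized library and 5.26 in WT. It was higher with stabilized beta-catenin in both pairs, but the bounds of 5.11 to 15.6 in the stabilized knockout and 2.99 to 9.61 in WT overlap. The quotient of Tie1 to Tek was 2.13 in the stabilized knockout and 1.61 in the knockout, and 2.27 in the stabilized library and 1.54 in WT. The quotient of Ptprb to Tie1 was 0.387 in the stabilized knockout and 0.769 in the knockout, and 0.407 in the stabilized library and 0.790 in WT, so phosphatase RNA was lower relative to Tie1 RNA in both libraries with stabilized beta-catenin. Its bounds overlap too, at 0.252 to 0.599 in the stabilized knockout and 0.431 to 1.42 in the knockout.

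**Figure D4:**
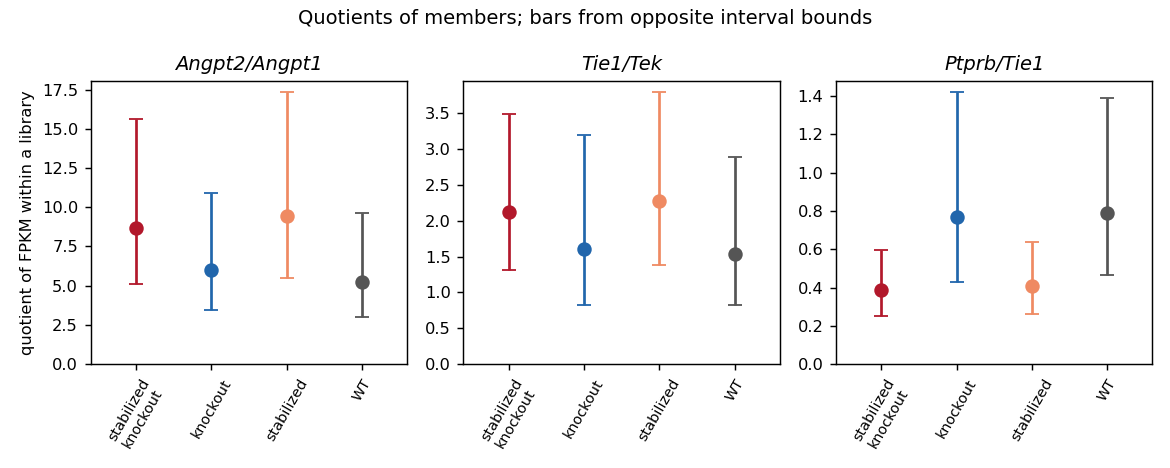
Quotients of FPKM of 2 members within each library (vertical axes from 0), with bars from opposite bounds of the deposited intervals. Angpt2 over Angpt1 is highest in the stabilized library (9.43) and lowest in WT (5.26), Ptprb over Tie1 is lowest in the stabilized knockout (0.387), and the bars of all libraries overlap.

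Likeness to other genes was measured as the distance between log2 profiles of FPKM plus 0.5, each centred on its mean over the 4 libraries. The 11727 genes searched excluded the members, short RNA genes and provisional symbols. Tie1 had no gene within a distance of 0.2, and its nearest were Vwa1 (0.20), Cd93 (0.20), Aplnr (0.26), Sox18 (0.28) and Lama4 (0.29), which include the apelin receptor and an endothelial SOX factor. Nearest to Tek were Beta-s, Ly6c1, Slc40a1, Sfrp4 and Cnn2, at 0.06 to 0.10, with Ly6c1 at 2.51, 0.876, 2.12 and 1.17 FPKM in the stabilized knockout, knockout, stabilized and WT libraries. Beta-s is a globin gene with near-identical relatives and its separate value is uncertain. Nearest to Ptprb were Pcdha6, Arhgdib, Hist2h2ac, Ncaph and Gbx2 at 0.07 to 0.13, of which Hist2h2ac also has near-identical relatives. The Angpt2 profile was close to those of 941 genes within 0.2, among them Dpp6, Tnr, Fbln2 and Atp9a. That of Angpt1 was close to 4518, led by Eapp, Rnf152, Txndc12, Slc30a9 and Xrcc4, so nearly flat profiles like it are common in the table. With 4 libraries such distances describe these samples only, and with 1 FPKM added in place of 0.5, 3, 2, 0, 3 and 0 of the 5 nearest genes remained for Tie1, Tek, Angpt1, Angpt2 and Ptprb.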

How the data were processed

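Whole-retina RNA of 4 genotypes was measured, with 1 library per genotype made by the TruSeq RNA Sample Prep Kit v2 from pooled RNA, per the labels' protocols. The authors deposited 1 table of FPKM with interval bounds and a quantification status. Per the submitters' processing notes, TopHat, Cuffdiff and mm10 were used, and the sources used here do not give versions, annotation, read totals or the level of the intervals. FPKM are relative within a library, so a change in abundant RNA shifts the rest, and the depth is unknown.

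Columns were assigned by the number in their name, which is that of 1 sample's description, and groups were taken from the labels. From the deposited FPKM, log2 ratios were computed with 0.5 added. Genes averaging 1 FPKM or more across libraries, with status OK throughout, were eligible for a call, which gave 13150 genes, and a call was a ratio of at least 1.5-fold. With 1 library per group nothing was tested, and non-overlap of deposited intervals was recorded. Bounds of a quotient join opposite ends of the 2 intervals. The ratio step was tested on simulated data. The 5 members and the 12 other gene lists were chosen with earlier results of these data known. Genes of those lists are named where 1.5-fold apart with intervals apart or where a result needs them. Others named (Emcn, Tal1, Vtn, Tagln, Lhx1, Calb1, Prox1, Angptl6, Ptpro, Ptprj, Foxo1 and those listed at 0) were chosen after their values were seen. Genes below the minimum in the Tie2 signal and integrin lists were named in full, also with their values seen. The 5 nearest genes by profile were taken for each member, and 1 of those of Angpt2 is not reported here. Coordinates came from GENCODE M21, on the same assembly. RefSeq promoter windows were found for 2 of the 5 members. Alternatives were 0.1 or 1 FPKM added, a minimum of 0.5 FPKM, 5 FPKM or none, all statuses, ratios centred on their median, libraries scaled to 1 total, a 2-fold rule, and intervals that do not overlap. Python 3.11.15, numpy 2.4.6, pandas 2.3.3 and matplotlib 3.10.9 were used.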

Additional observations from a re-analysis of the deposited data

Results flagged for a closer look

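For 4 members the log2 ratio of Ndp loss had opposite signs on the 2 states of beta-catenin, and this difference was not tested. In the stabilized knockout over the stabilized library Tie1 had a ratio of 0.087, Tek 0.14, Angpt1 0.14 and Ptprb 0.020. In the knockout over WT the ratio was -0.25 for Tie1, -0.24 for Tek, -0.020 for Angpt1 and -0.25 for Ptprb. The difference between a member's 2 ratios is the same number as the difference of its stabilization ratios given above. It is therefore not a separate observation. Each ratio rests on 1 library a group, and the deposited intervals overlapped in all 8 cases. The Angpt1 ratio in the knockout over WT turned to 0.0022 after re-centring on the median of all genes, and that of Ptprb in the stabilized knockout over the stabilized library to -0.017 there and to -0.039 after rescaling to the same total, so for these genes the signs were not opposite under those settings.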

How the results depend on the processing

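The counts of called members moved with the minimum level. With a minimum mean of 0.5 FPKM or none, 3 members in place of 1 were at least 1.5-fold higher in the stabilized knockout over the knockout, and 2 in place of 1 in the stabilized library over WT and in the stabilized knockout over WT, since Tek and Ptprb became eligible. The share of all genes called was 2.14% and 1.60% at these 2 settings in the stabilized knockout over the knockout, 1.84% and 1.28% in the stabilized library over WT, and 1.92% and 1.39% in the stabilized knockout over WT. With a minimum of 5 FPKM no member was eligible, so no count could be given. The other counts, including 2-fold and intervals that do not overlap over the eligible members, stayed within 1.5 times. Of 200 member ratios under alternatives, 199 moved by no more than the deposited intervals allow. The exception was Tek in the stabilized knockout over the knockout, at 1.53 with 0.1 added. Tie1 ranged from 1.23 to 1.99 in that comparison and from 0.97 to 1.51 in the stabilized library over WT. Tek ranged from 0.47 to 0.94 and Ptprb from 0.31 to 0.59 in the stabilized library over WT, so each fell short of 1.5-fold under some settings. With 1 FPKM added, Ptprb in the stabilized knockout over the knockout (0.49) and Tek in the stabilized knockout over WT (0.58) also fell short of 1.5-fold. Angpt1 in the knockout over WT lay at 0.00 after re-centring, on the other side of 0, and Ptprb in the stabilized knockout over the stabilized library at -0.04 after rescaling to the same total. Of the list medians under alternatives, 396 moved by less and 34 moved by over 0.1 on the log2 scale. No paired analysis was possible because each genotype has 1 library. Depth is unknown, and the deposited intervals extend by 20.6% to 33.6% of the FPKM to either side for the members.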

Other observations

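Among relatives of the angiopoietins that were below the minimum for a call, Angptl4, a secreted inhibitor of lipoprotein lipase, was at 1.20 FPKM in the stabilized knockout against 0.386 FPKM in the knockout. It was at 1.37 FPKM in the stabilized library against 0.497 FPKM in WT, with intervals apart in both pairs. Angpt4, the remaining angiopoietin of the mouse, was at 0.852, 0.697, 0.584 and 0.364 FPKM in the stabilized knockout, knockout, stabilized and WT libraries. Its intervals lay apart only between the stabilized knockout and WT. These genes were singled out after their values were seen.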
